A study of Mus musculus with 6 samples.

Results

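Ion channels, ligand-gated receptors and aquaporins were examined in cultures of mouse satellite cells, which are the resident stem cells of muscle. The set was defined by gene symbol: the potassium (Kcn), sodium (Scn, Scnn, Asic), chloride (Clcn, Clic), Hcn, Trp, P2X, nicotinic, GABA-A, glutamate and glycine receptor families, the aquaporins, and the endplate genes Musk, Rapsn and Ache. It held 116 genes, each with 1 probe, among the 6370 genes named on an array of 10500 probes. Of the 116, 111 were measured, 110 with a value on all 6 arrays. Kcnd2, Kcne1, Kcnj2, Trpc1 and Gabra6 had no value, and Kcnh3 lacked 1. The symbol rule also took in Trpc4ap, a TRPC4-associated protein that is not itself a channel.

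The cells came from the hind limb muscles of 3 adult male Swiss Webster mice, pooled within each mouse, and each mouse gave both cultures. Preplating removed fibroblasts, and a mixture of myoblast clones was purified. The proliferating group grew in medium containing bFGF (6.6 ng/ml), while differentiated cultures spent 72 hours without FGF in 10% horse serum and insulin (1 mM as labelled). There were 3 arrays per group, numbered here by mouse. Values are intensities in arbitrary array units.

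Muscle fibres depend on genes of several of these families to receive a nerve impulse and to carry it along the membrane. Acetylcholine opens the nicotinic receptor of the endplate, which in fetal and cultured muscle contains the gamma subunit (Chrng) and in innervated adult muscle the epsilon subunit (Chrne) in its place. MuSK, the kinase that answers the nerve's agrin signal, and rapsyn gather the receptor under the nerve terminal, and acetylcholinesterase ends the signal. Sodium channels then fire the action potential, and potassium and chloride channels restore and stabilise the resting potential. Among sodium and chloride channel genes, Scn4a and Clcn1 were not analysed here. In human myoblasts, potassium currents that hyperpolarise the cell are known to precede fusion.

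The stretches upstream of 3 receptor genes are shown because the myogenic and synaptic control of these subunits is classically studied there. Chrng and Chrna1 were picked beside Chrne after their values were seen, as the subunit it replaces and the subunit that binds acetylcholine. The sequences are from RefSeq on GRCm38.p6, the 250 bases before the annotated gene start, for Chrne at chr11:70619195-70619444 (minus strand), for Chrng at chr1:87205561-87205810 (plus strand) and for Chrna1 at chr2:73580339-73580588 (minus strand). Capitals mark exact matches on either strand to the E-box CAGCTG, to a second E-box searched as CAGGTG with its reverse complement CACCTG, and to the N-box core CCGGAA. Myogenic factors can bind E-boxes, and the N-box is known from synapse-specific transcription. The MCAT core GGAATG was searched too.
Chrne: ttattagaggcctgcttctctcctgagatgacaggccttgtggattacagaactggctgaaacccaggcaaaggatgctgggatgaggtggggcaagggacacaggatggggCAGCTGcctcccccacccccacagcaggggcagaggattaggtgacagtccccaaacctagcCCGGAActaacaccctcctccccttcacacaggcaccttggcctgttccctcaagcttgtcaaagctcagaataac
Chrng: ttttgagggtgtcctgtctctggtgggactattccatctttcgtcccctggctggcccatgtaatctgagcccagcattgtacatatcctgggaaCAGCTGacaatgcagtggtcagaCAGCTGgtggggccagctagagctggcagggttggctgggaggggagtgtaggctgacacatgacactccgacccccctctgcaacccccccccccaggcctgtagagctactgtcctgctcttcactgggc
Chrna1: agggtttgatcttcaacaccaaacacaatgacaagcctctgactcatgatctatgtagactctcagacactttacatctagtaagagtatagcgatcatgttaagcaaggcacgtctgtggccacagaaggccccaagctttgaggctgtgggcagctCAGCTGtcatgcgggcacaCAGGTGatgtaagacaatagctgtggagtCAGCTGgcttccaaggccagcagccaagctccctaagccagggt

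In this window Chrne held 1 CAGCTG and 1 CCGGAA, Chrng held 2 CAGCTG, and Chrna1 held 2 CAGCTG and 1 CAGGTG. The table held 125 such windows for 96 of the channel genes. CAGCTG occurred in 23 of them (18.4%) and in 13.0% of all 32851 windows. CCGGAA occurred in 7 of the 125 (5.6%) and in 12.0% of all. The second E-box occurred in 22.4% of the channel windows and 17.2% of all, and GGAATG in 12.8% and 12.6%. A match is a match of letters and was not read as a binding site.

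The arrays differed in ways that touch these genes. Proliferating culture 1 read higher than the other proliferating cultures for most muscle markers. The summed intensity of 8 measured muscle markers was 540.1 in it, against 213 and 280.02, and 484 to 938 in differentiated cultures. Myod1 (154, 146 and 134 in proliferating cultures 1, 2 and 3) and Myf5 (20.7, 21.4 and 11.7) differed little between cultures 1 and 2. After differentiation Myod1 was lower in 3 of 3 mice. The summed intensity of 5 dividing-cell markers was 57.0 to 103.6 in proliferating and 12.6 to 20.9 in differentiated cultures. Differentiated array 1 was brighter at the low end of the scale, with a 25th percentile of 0.258 against 0.115 to 0.182 elsewhere, while the 6 array medians lay between 0.883 and 0.939.

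No channel gene passed the test without a mouse term. Differences are differentiated minus proliferating on the log2 scale, tested with limma over 10186 probes at a Benjamini-Hochberg adjusted p under 0.05. Of 111 channel genes 0 were higher and 0 lower, against 0.285% and 1.01% of all probes. At an unadjusted p under 0.05, 5 were higher (7.82% of all probes) and 3 lower (7.09%). Both cultures of each mouse were also matched in a random-mouse fit, which shares 1 correlation over all probes, and in a fixed-mouse fit. Standard errors and intervals below are from the fit without a mouse term, so they include the spread between mice. In the random-mouse fit 2 genes were higher, Chrne and P2rx5, and 2 lower, Gria3 and Aqp1, against 5.07% and 5.28% of all probes. In the fixed-mouse fit there were 0 and 0, against 0.56% and 0.874% of all probes, and 17 channel genes (15.3%) had an unadjusted p under 0.05, beside 24.5% of all probes.

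The median difference of the 111 genes was 0.37, beside 0.20 over all probes. It was positive for 83 and negative for 28, so that 74.8% were positive, against 61.4% of all probes. With quantile normalization, which moved the median of all probes to 0.04, 66 were positive (59.5%, against 51.9% of all probes). Of 110 genes with 6 values, 32 were higher in all 3 mice (31% of all probes) and 7 lower (18%). The groups did not overlap for 7 genes that were higher (10.9% of all probes) and 3 that were lower (9.8%). The channel genes' shares were 29.1% and 6.36% in all mice and 6.36% and 2.73% without overlap. The first was near that of all probes, and the rest were lower. More channel genes (36.9%) than probes (19.3%) had means under the 25th percentile of positive intensities in both groups. Among the other 70 channel genes 7 lay higher and 3 lower without overlap, beside 1049 and 981 of 8224 probes.

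The muscle acetylcholine receptor was measured well above the dim range in both cultures for its alpha, beta, delta and gamma subunits. The alpha subunit Chrna1, which binds acetylcholine, read 104, 31.6 and 46.5 in the proliferating cultures of mice 1, 2 and 3, and 144, 46.2 and 50.8 once differentiated. The beta subunit Chrnb1 read 26.4, 8.37 and 11.6, then 31.99, 13.1 and 17.5. The delta subunit Chrnd read 8.95, 2.46 and 4.75, then 13.5, 2.65 and 6.42. For all 3 genes mouse 1 was highest and mouse 2 lowest in both cultures, and the groups overlapped although each mouse read higher after differentiation. The log2 differences were 0.38, 0.51 and 0.38, with 95% intervals of -1.09 to 1.85, -0.83 to 1.84 and -1.27 to 2.03 (limma adjusted p = 0.854, 0.765 and 0.873).

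The fetal gamma subunit Chrng read 48.9, 23.2 and 28.5 in proliferating cultures and 107, 22.3 and 38.3 in differentiated ones. It was higher in mice 1 and 3 and slightly lower in mouse 2, with a difference of 0.50 and an interval of -0.98 to 1.98 (limma adjusted p = 0.795). The order of the mice was the one seen for the other 3 subunits. Of the measured muscle markers, Myog, the transcription factor myogenin, kept that order too, at 142, 18.3 and 44.8 and then 210, 83.7 and 112. So did Ckm, Tnnt3, Actn2 and Mymk, while Myod1, Myf5 and Tnnt1 did not. Without proliferating array 1 the differences of Chrna1, Chrnb1, Chrnd and Chrng were 0.86, 0.98, 0.84 and 0.81. Without differentiated array 1 they were -0.14, 0.15, -0.19 and -0.12. With quantile normalization Chrna1 turned to -0.02.

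The adult epsilon subunit Chrne separated the cultures. It read 0.115, 0.0858 and 0.0418 in proliferating cultures and 0.492, 0.196 and 0.344 in differentiated ones, so that every differentiated culture lay above every proliferating one. The difference was 2.11 ± 0.56 (log2 ± SE, 3 arrays per group), or 4.32-fold. Limma's adjusted p was 0.12 without a mouse term, 0.0193 in the random-mouse fit and 0.0838 in the fixed-mouse fit. The proliferating mean, 0.0809, was under 0.179, the 25th percentile of positive intensities, and a mean below that level is called dim from here on. With 0.179 added to each value before taking logs the difference was 0.98 (limma adjusted p = 0.154).

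Each probe has its own brightness, so epsilon was set against the other subunits only by change. The log2 ratio of Chrne to Chrng was higher after differentiation by 0.97, 1.25 and 2.62 in mice 1, 2 and 3, a mean of 1.61. The mean change was 1.73 against Chrna1, 1.61 against Chrnb1 and 1.73 against Chrnd, positive in 3 of 3 mice for each. For Chrng against Chrna1 it was 0.12, positive in 2 of 3 mice. The changes of the Chrne ratios rest on dim proliferating values of Chrne. With 0.179 added to each value the mean changes of the 4 Chrne ratios were 0.48, 0.60, 0.48 and 0.61, the groups overlapped for each, and the ratios to Chrna1 and Chrnb1 were lower in mouse 2. The ratios, and this setting for them, were chosen after the values were seen, so they are given as a description with no test.

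Genes that build the endplate were measured in both cultures. Rapsn, which encodes the scaffold rapsyn, read 7.85, 5.94 and 11.01 and then 8.52, 5.98 and 15.9, a difference of 0.22 with an interval of -0.96 to 1.39 (limma adjusted p = 0.899). Musk read 0.692, 0.28 and 0.346 and then 0.889, 0.43 and 0.493, a difference of 0.50 with an interval of -0.70 to 1.70 (limma adjusted p = 0.738). Both were higher in 3 of 3 mice with overlapping groups. Ache, which encodes acetylcholinesterase, read 1.85, 0.102 and 0.0835 in proliferating cultures and 1.92, 0.567 and 1.33 in differentiated ones. Proliferating culture 1 alone lay within the differentiated range. The difference was 2.17 ± 1.14 (limma adjusted p = 0.431), and without that array 3.62, where Ache passed (limma adjusted p = 0.041).

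**Figure D1:**
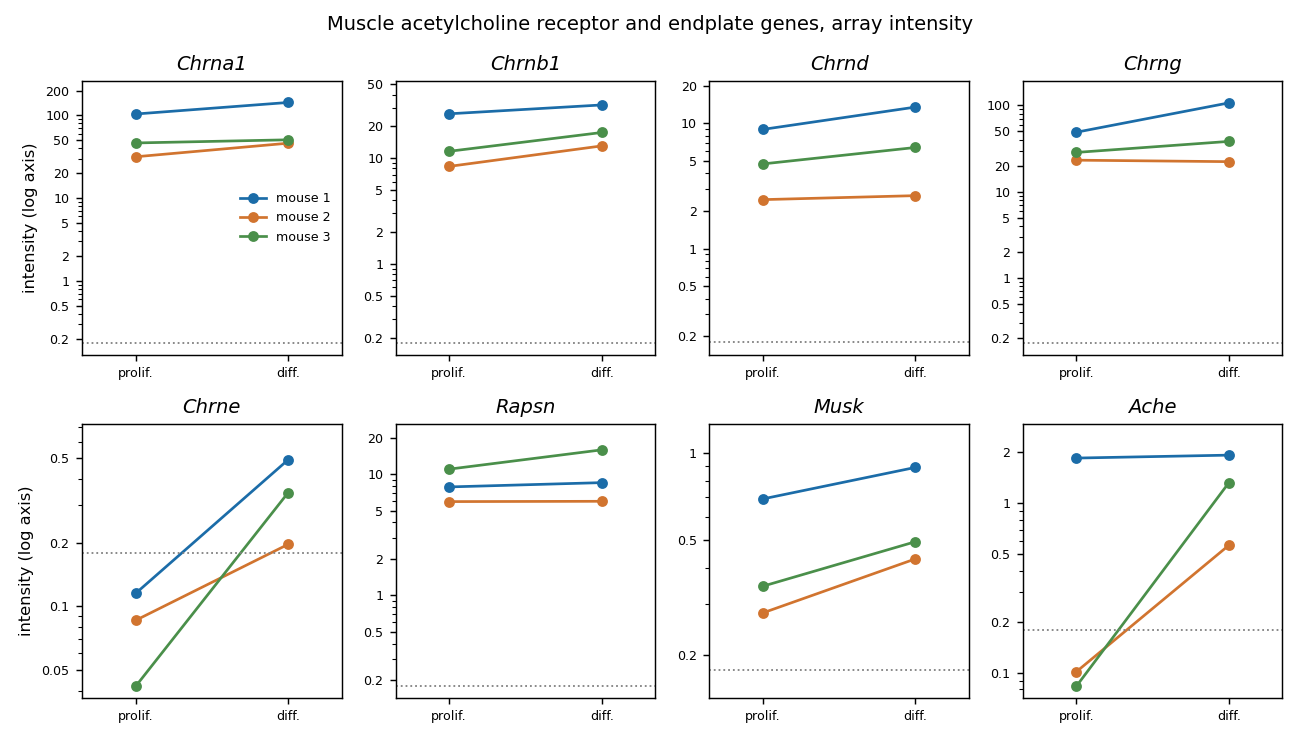
Intensity (log axis, arbitrary array units) of 5 muscle acetylcholine receptor subunits and 3 endplate genes in the proliferating and differentiated culture of each mouse, joined by a line per mouse; the dotted line is 0.179, the 25th percentile of positive intensities. Chrne separates the groups, while Chrna1, Chrnb1, Chrnd and Chrng overlap, with mouse 1 on top in both cultures. No gene shown passed the test without a mouse term, and only Chrne passed in the random-mouse fit.

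The plot of receptor genes by mouse has a separate axis for each gene, so slopes cannot be compared between genes. Within a mouse the log2 changes were 0.11 to 0.65 for the alpha, beta and delta subunits. For Chrng they were 1.13, -0.06 and 0.43 in mice 1, 2 and 3. For Chrne, whose proliferating mean was dim, they were 1.19 to 3.04. For Ache they were 0.06, 2.48 and 3.99 in mice 1, 2 and 3. Of 110 channel genes with 6 values, 43 ranked the mice the same way in both cultures (39.1%), beside 36.2% of all probes.

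Listed partners of the endplate did not pass either. Of 33 listed genes 18 were analysed here, and 0 were called in any of the 3 limma fits. Over all probes the calls higher and lower were 0.285% and 1.01% without a mouse term. They were 5.07% and 5.28% in the random-mouse fit and 0.56% and 0.874% in the fixed-mouse fit. The median difference of the 18 was 0.26. Without a mouse term 1 had an unadjusted p under 0.05 (14.9% of all probes). That 1 was Dtna, the alpha-dystrobrevin of the membrane scaffold, which read 34.5, 2.69 and 7.04 and then 61.9, 31.9 and 26.01 (difference 2.10, limma adjusted p = 0.317).

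Among P2X receptors, the ATP-gated cation channels, P2rx5 had the largest difference of the 5 measured genes. In rat it is described on differentiating satellite cells. It read 1.24, 0.311 and 0.649 in proliferating cultures of mice 1, 2 and 3, and 3.73, 2.58 and 1.89 in differentiated ones. The groups did not overlap, and the difference was 2.06 ± 0.59, or 4.18-fold (limma adjusted p = 0.145). It passed in the random-mouse fit (0.0217) and missed in the fixed-mouse fit (0.083). P2rx4 read 1.87, 2.3 and 1.49 and then 1.73, 0.91 and 1.49, lower in 3 of 3 mice by small amounts in mice 1 and 3 (difference -0.49, interval -1.51 to 0.54, limma adjusted p = 0.69). P2rx1, P2rx6 and P2rx7 had differences of -0.14, 0.52 and 0.96.

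Potassium channels divide by how they open. Inward rectifiers, which hold the membrane near its resting potential, had positive differences for all 9 measured genes, from 0.14 to 1.34 (61.4% of all probes). With quantile normalization 6 of 9 were positive (51.9% of all probes). Of the 9, 0 passed in any of the 3 fits and 3 were higher in all 3 mice (31% of all probes). None had groups without overlap (10.9% of all probes higher and 9.8% lower), and 4 were dim in both groups (19.3% of all probes). Kcnj12, the Kir2.2 channel, read 0.203, 0.07 and 0.113 and then 0.425, 0.162 and 0.377, and was dim before differentiation. It was higher in 3 of 3 mice with overlapping groups (difference 1.34, interval 0.01 to 2.67, limma adjusted p = 0.332, and 0.0569 in the random-mouse fit). With 0.179 added to each value the difference was 0.68. Kcnj6, a G protein-gated channel known from neurons, read 7.99, 8.27 and 11.7 and then 26.6, 10.5 and 20.9, with a difference of 0.97 (limma adjusted p = 0.405). Kcnj11, the pore of the ATP-sensitive channel, had a difference of 0.64 (limma adjusted p = 0.69).

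Of the 5 calcium-activated channels, Kcnn1, the small-conductance SK1 channel, read 0.0827, 0.138 and 0.0935 in proliferating cultures and 0.458, 0.185 and 0.233 in differentiated ones. Its groups did not overlap, and it was dim before differentiation (difference 1.41 ± 0.49, limma adjusted p = 0.237, and 0.0638 in the random-mouse fit). With 0.179 added to each value the difference was 0.69. Kcnn4, the intermediate-conductance channel, read 0.716, 4.26 and 2.16 and then 1.18, 3.38 and 4.55, higher in mice 1 and 3 and lower in mouse 2. Its difference was 0.49 with an interval of -1.29 to 2.26 (limma adjusted p = 0.846).

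Voltage-gated potassium channels ranged from -0.63 to 1.02 over 13 measured genes. Kcnh1, the ether-a-go-go channel linked in human myoblasts to the hyperpolarisation before fusion, read 0.458, 1.7 and 0.787 and then 0.831, 1.39 and 0.844. Its difference was 0.22 with an interval of -1.08 to 1.53 (limma adjusted p = 0.907). Kcna6, a delayed rectifier that was dim in both groups, had the smallest p of the family, with a difference of 0.99 (limma adjusted p = 0.445).

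Of the 5 leak channels of the 2-pore family, Kcnk2, the mechanosensitive TREK-1 channel, read 11.7, 11.9 and 8.42 and then 14.1, 12.4 and 10.8, with a difference of 0.23 and an interval of -0.70 to 1.16 (limma adjusted p = 0.861). Auxiliary subunits ranged from -0.74 to 2.37 over 10 genes. Kcne1l, a beta subunit encoded on the X chromosome, had the smallest p among them. It read 0.0977, 0.605 and 0.444 and then 0.421, 1.52 and 1.88, higher in 3 of 3 mice with overlapping groups (difference 1.84, limma adjusted p = 0.352, and 0.0553 in the random-mouse fit).

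**Figure D2:**
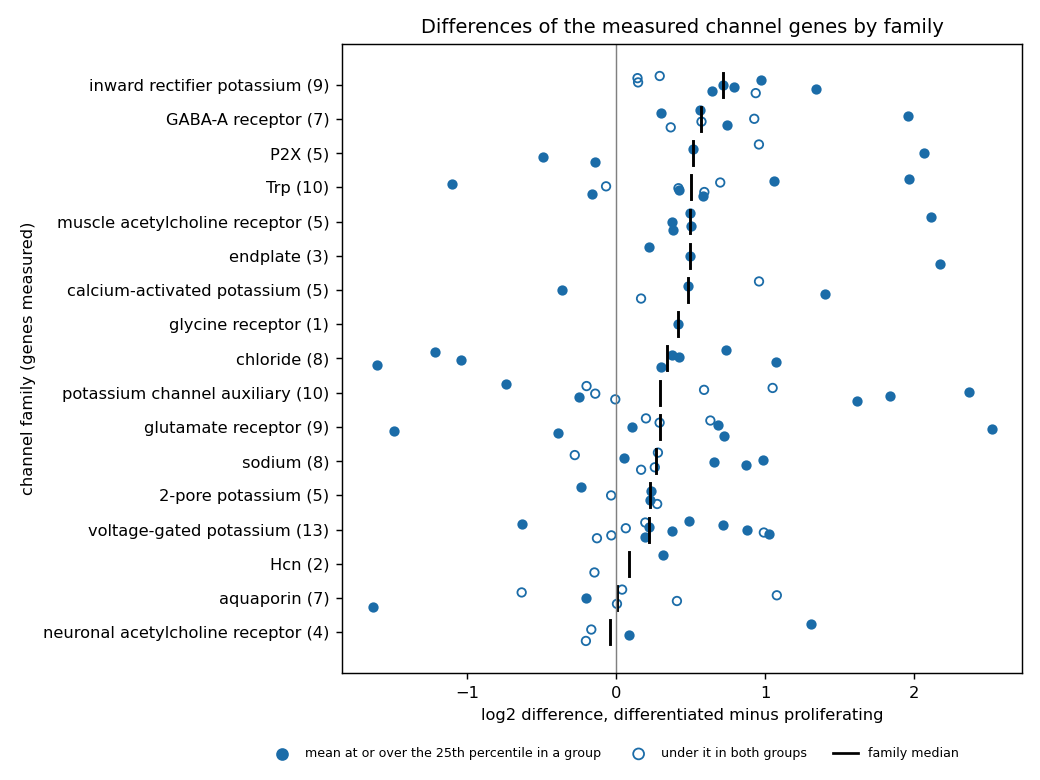
Log2 difference (differentiated minus proliferating) of each of the 111 measured channel genes, by family with the number measured; filled points have a mean intensity of at least 0.179 in a group, open points are under it in both, and bars are family medians. Family medians lie between -0.04 and 0.72 and single genes between -1.63 and 2.52. Without a mouse term 0 genes passed, and in the random-mouse fit 2 were higher and 2 lower.

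The plot of differences by family shows most families on both sides of 0. The inward rectifier, GABA-A, muscle receptor, endplate and glycine receptor (1 gene) families lie wholly to its right, which turned for 3 of the 9 inward rectifiers and for Chrna1 with quantile normalization.

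Of 8 measured sodium channel genes, 7 had positive differences (61.4% of all probes) and 0 passed in any of the 3 fits. With quantile normalization 3 were positive (51.9% of all probes), and the median of the family went from 0.27 to -0.06. Scn11a, the Nav1.9 channel of sensory neurons, read 18.2, 16.8 and 20.02 and then 40.5, 18.6 and 32.1. It was higher in 3 of 3 mice with overlapping groups (difference 0.66, interval -0.37 to 1.69, limma adjusted p = 0.562). Scn1a, a neuronal sodium channel, did not overlap between the groups, at 0.142 to 0.277 and then 0.353 to 0.56 (limma adjusted p = 0.367). Scn1a, Clcn5, Clcn6 and Gabrr1 fell outside the naming rule and were named after their values were seen, because their groups did not overlap.

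Chloride channel genes went both ways. Clic1, which encodes a chloride intracellular channel protein, read 21.4, 89.3 and 51.8 and then 11.5, 34.2 and 19.99. It was lower in 3 of 3 mice, with mouse 2 highest in both cultures and overlapping groups (difference -1.22, interval -2.72 to 0.28, limma adjusted p = 0.44). Clic4, of the same family, read 24.4, 15.8 and 13.2 and then 32.1, 35.98 and 20.4, higher in 3 of 3 mice (difference 0.74, interval -0.32 to 1.79, limma adjusted p = 0.514). Clcn3, an endosomal chloride-proton exchanger, was lower in 3 of 3 mice, at 0.454, 1.83 and 0.897 and then 0.0585, 1.28 and 0.357 (difference -1.60, limma adjusted p = 0.55). Clcn5, another endosomal exchanger, read 0.504, 0.339 and 0.396 and then 0.198, 0.167 and 0.237, with no overlap (difference -1.04 ± 0.41, limma adjusted p = 0.289, and 0.0572 in the random-mouse fit). Clcn6, a late endosomal exchanger, read 0.305 to 0.416 and then 0.424 to 0.474 (limma adjusted p = 0.696).

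Aqp1, the water channel best known from red cells and endothelium, was lower after differentiation in each mouse. It read 0.632, 0.22 and 0.256 in proliferating cultures of mice 1, 2 and 3, and 0.211, 0.0597 and 0.0945 in differentiated ones. The highest differentiated value lay just under the lowest proliferating one, and the differentiated mean was dim. The difference was -1.63 ± 0.63 (limma adjusted p = 0.276), with 0.0369 in the random-mouse and 0.0667 in the fixed-mouse fit. With 0.179 added to each value it was -0.82. The 5 measured endothelial markers, Pecam1, Cdh5, Kdr, Tek and Tie1, had mean intensities of 0.0871 to 0.179 with 0 called in any of the 3 fits, and a summed level of 0.412 to 0.825 in proliferating and 0.422 to 0.947 in differentiated cultures. Their part in the Aqp1 difference was not tested. The other 6 aquaporins had differences of -0.63 to 1.08.

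Glutamate, GABA and glycine receptors carry fast signals between neurons. Gria3, an AMPA receptor subunit, was lower in differentiated cultures, at 0.595, 0.886 and 0.781 and then 0.415, 0.183 and 0.245. The groups did not overlap, and the difference was -1.49 ± 0.47, or 2.81-fold lower (limma adjusted p = 0.184). It passed in the random-mouse fit (0.0434) and not in the fixed-mouse fit (0.129). The other 8 glutamate receptor genes had differences of -0.39 to 2.52.

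All 7 measured GABA-A genes had positive mean differences, with quantile normalization too, beside 61.4% of all probes, and 0 passed in any of the 3 fits. Only Gabrr1 of the 7 was higher in all 3 mice (31% of all probes), the others each being lower in 1 mouse. Of the 7, 3 were dim in both groups (19.3% of all probes). Gabrd, which forms receptors outside synapses, read 0.425, 0.311 and 0.212 and then 6.7, 0.245 and 1.00, with differentiated culture 1 far above the rest (difference 1.96, limma adjusted p = 0.45). Gabrr1 read 0.168 to 0.233 and then 0.243 to 0.32 (limma adjusted p = 0.581). Glra1, a glycine receptor subunit, followed the mice, at 0.757, 4.93 and 3.12 and then 1.09, 7.33 and 3.49 (difference 0.42, limma adjusted p = 0.887). Of the 4 neuronal nicotinic genes Chrnb2 had the smallest p, at 0.11, 0.0843 and 0.0415 and then 1.39, 0.0819 and 0.0512, so that differentiated culture 1 alone stood out (limma adjusted p = 0.675). Of 7 measured neuron markers 0 were called in any of the 3 fits, with mean intensities of 0.0699 to 0.776 and a summed level of 1.54 to 2.47 in proliferating and 1.80 to 4.11 in differentiated cultures. Their part in these values was not tested.

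Trp channels, cation channels opened by stretch, lipids or temperature among other signals, had differences of -1.10 to 1.96 over 10 measured genes. Trpv6, a calcium channel of epithelia, had the smallest p. It read -0.00681, 0.0989 and 0.0899 in proliferating cultures, where it was dim, and 0.198, 0.486 and 0.13 in differentiated ones. The groups did not overlap, and its value under 0 was raised to the floor of 0.0236 (difference 1.96, limma adjusted p = 0.257). With 0.179 added to each value the difference was 0.84. Trpv2, a cation channel that growth factors move to the cell surface, read 0.0826, 0.0906 and 0.0762 and then 0.324, 0.0936 and 0.0805, so that differentiated culture 1 alone stood out (limma adjusted p = 0.661). Trpc4ap had a difference of -0.16, and without it the median of the set was 0.38. Of the 2 pacemaker genes, Hcn3 had a difference of 0.31 (limma adjusted p = 0.863).

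**Figure D3:**
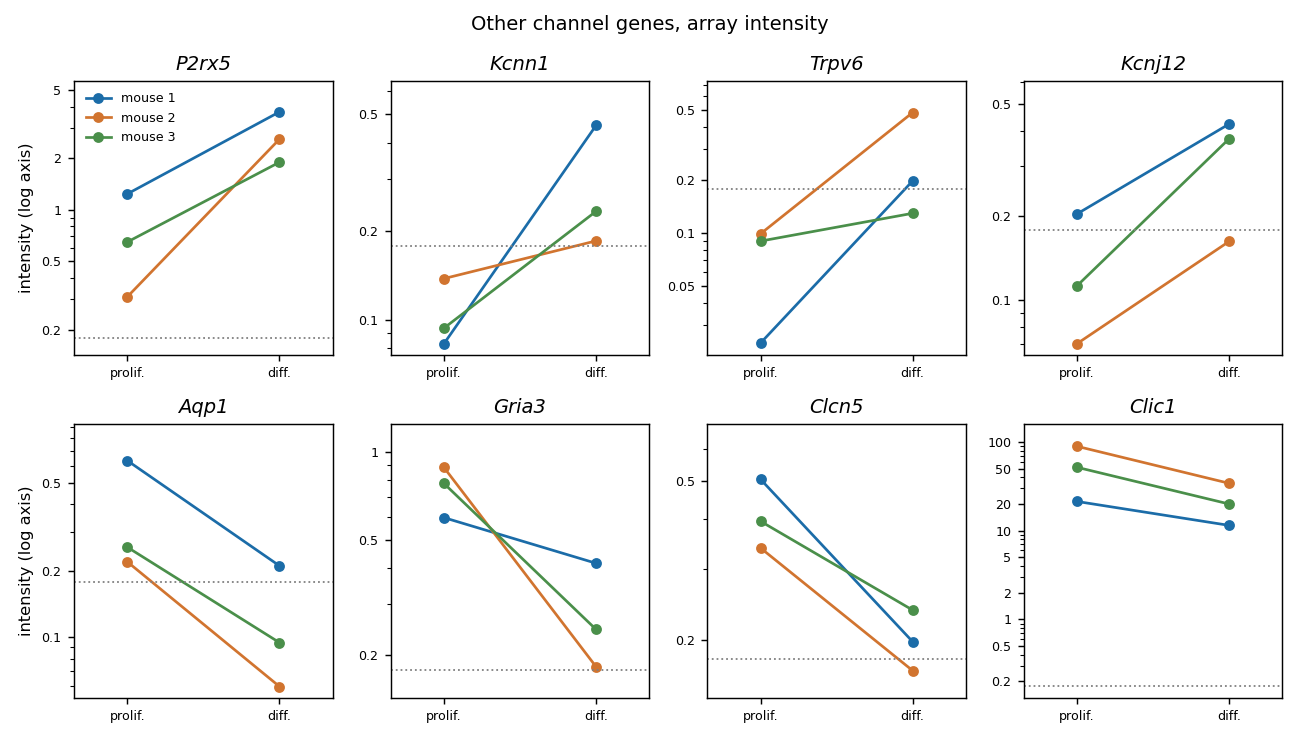
Intensity (log axis, arbitrary array units) of 8 further channel genes in the proliferating and differentiated culture of each mouse, joined by a line per mouse; the dotted line is 0.179. P2rx5, Kcnn1 and Trpv6 lie higher and Aqp1, Gria3 and Clcn5 lower in every differentiated culture than in any proliferating one. Kcnj12 and Clic1 overlap. Without a mouse term 0 of the 8 passed. P2rx5, Aqp1 and Gria3 passed in the random-mouse fit, and 0 in the fixed-mouse fit.

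The plot of further channel genes by mouse shows P2rx5 wholly above the dotted line, while Kcnn1, Trpv6, Kcnj12, Clcn5 and Aqp1 have values on both sides of it.

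Many channel genes were dim. Of the 111, 41 (36.9%) were dim in both groups, against 19.3% of all probes, and 22 more in 1 group. None of the chloride, muscle receptor and endplate genes measured was dim in both groups, whereas 5 of 7 aquaporins were. Of the 41 dim genes 27 were highest on differentiated array 1 (65.9%), beside 63.6% of all dim probes, and their median there was 0.201 against 0.057 to 0.108 on the other arrays. The median difference of these 41 was 0.20, and of the other 70 it was 0.49. Without differentiated array 1 the median difference of the 110 genes still fitted was 0.15, and that of all probes 0.02.

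**Figure D4:**
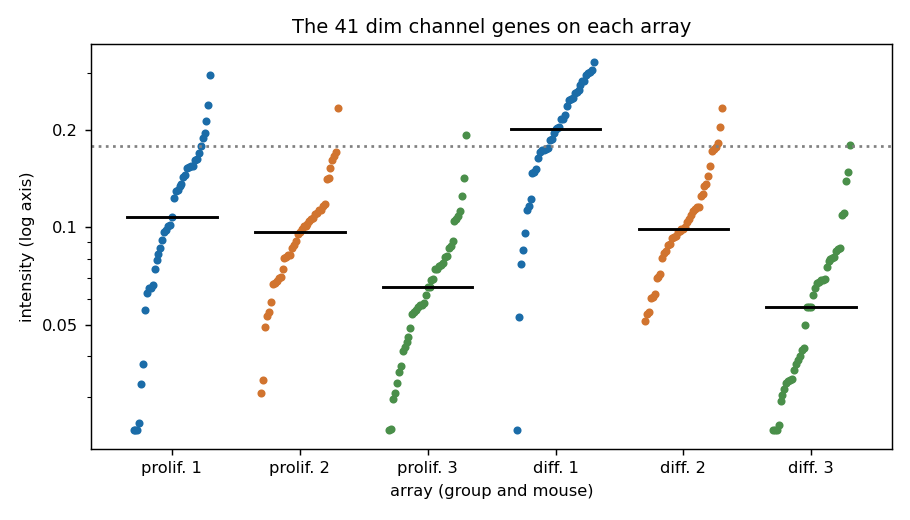
Intensity (log axis, arbitrary array units) of the 41 channel genes with means under 0.179 (dotted line) in both groups, on each of the 6 arrays, with values sorted within an array and the median as a bar. Differentiated array 1 has the highest median, 0.201, and both arrays of mouse 3 the lowest, 0.0652 and 0.057.

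The plot of dim genes by array shows medians near each other for both arrays of mouse 2 and of mouse 3. The part of array brightness in the dim genes' differences was not tested.

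Pumps and cotransporters that maintain the ion gradients were measured for 16 listed genes. Of these, 8 had positive and 8 negative differences. In the limma fit without a mouse term 0 were called and 4 had an unadjusted p under 0.05 (14.9% of all probes). In the random-mouse fit 3 were higher (5.07% of all probes) and 0 lower (5.28%). Fxyd6 and Fxyd1, small regulators of the sodium pump, differed by 4.11 and 4.40 (limma adjusted p = 0.056 and 0.143, and 0.0037 and 0.0168 in the random-mouse fit). In the fixed-mouse fit Fxyd6 passed too (0.0495). Slc4a3, an anion exchanger, had a difference of 1.73 (limma adjusted p = 0.124, and 0.0168 in the random-mouse fit). Slc4a2, of the same family, also had an unadjusted p under 0.05 but was lower in 3 of 3 mice with no overlap. Its difference was -1.17 (limma adjusted p = 0.315, and 0.0787 in the random-mouse fit). Of 10 measured channel anchors 0 were called without a mouse term, 1 had an unadjusted p under 0.05, and the same gene was higher in the random-mouse fit. It was Cav3, the muscle caveolin, which read 41.2, 3.25 and 9.21 and then 125, 130 and 101 (difference 3.46, limma adjusted p = 0.0988, and 0.0188 in the random-mouse fit).

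Of the lists of other cell types, fibroblast markers went both ways. Over 6 measured genes 0 were called in the limma fit without a mouse term. At an unadjusted p under 0.05 there were 2 (14.9% of all probes), Fbln1, a matrix protein gene, lower and Col1a2, a collagen gene, higher. The summed level was 3.01 to 3.93 and then 1.38 to 1.55, and without Fbln1, a setting chosen after the values were seen, 0.384 to 0.917 and then 0.887 to 1.44. In the random-mouse fit Fbln1 was lower (limma adjusted p = 0.0114) and no other of the 6 was called. The measured Schwann and glia (2), smooth muscle (6) and macrophage (3) markers had 0 calls in each of the 3 fits and 0 at an unadjusted p under 0.05 in the limma fit without a mouse term. The summed smooth muscle level was 12.9 to 98.5 in proliferating and 59.5 to 170.2 in differentiated cultures. Most of it was Acta2, at 8.59 to 81.1 and then 49.7 to 148. Of the 6 genes, 4 had positive differences and 2 negative, Myh11 (-0.55) and Actg2 (-0.56). In bulk cultures fewer cells of a type and less RNA per cell cannot be told apart, and the part of these cells in the channel genes' differences was not tested.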

How the data were processed

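The members, lists and comparisons were chosen with earlier results of these data known. Intensities, as deposited, were linear and came from 1-colour CodeLink arrays, hybridised with cRNA made from 5 µg of total RNA, per the labels' protocols. The sources used here do not give the scanner software, the background method or the scaling. Of 10500 probes, 10128 had 6 values and 311 had none. All 6373 platform symbols matched the GRCm38.p6 gene table by Entrez ID, and 4127 probes had no symbol.

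Intensities under 0.0236, the 1st percentile of positive values, were set to it before taking log2 of the deposited values. Array medians lay within 0.089 on the log2 scale, so no scaling was added. The 10186 probes with enough values per group were tested in R 4.3.3 with limma 3.58.1, with group as the only term. The test was tried on simulated data first. Both cultures of a mouse share an animal, per the design text, so the replicate numbers pair the arrays. Deviations from group means correlated at 0.42, 0.37 and 0.28 within mice 1, 2 and 3. Mouse as a fixed and as a random block (correlation 0.535) were alternatives, because no analysis method was stated. The fit without a block ignores this pairing and leaves the spread between mice in its standard errors. For Chrna1 the standard error was 0.64 without a block and 0.39 with the random block.

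The rule for named genes took members past the threshold in any of the 3 fits (with a block, if the groups did not overlap), the 10 brightest, the smallest p of each remaining family and a panel, 31 genes in all. Some genes of the panel were not analysed here. Apart from that choice, the dim level common to all probes and the summed marker levels, brightness was not compared between probes.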

Additional observations from a re-analysis of the deposited data

How the results depend on the processing

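Of 31 named genes, 22 kept their direction in each of the other settings run (up to 19). Quantile normalization moved the median difference of all probes from 0.20 to 0.04 and that of the channel genes from 0.37 to 0.19, and turned Chrna1 to -0.017. Leaving out 1 array or 1 mouse turned the sign of Chrna1 (range -0.14 to 0.86), Chrnb2 (-0.17 to 2.22), Chrnd (-0.19 to 0.98), Chrng (-0.12 to 1.01), Glra1 (-0.37 to 1.16), Hcn3 (-0.31 to 0.93), Kcnh1 (-0.22 to 0.72), Kcnn4 (-0.21 to 1.08) and Rapsn (-0.17 to 0.54), none of which passed in any setting. Of 303 family medians, 34 moved by more than their spread over mice. That of the muscle receptor, 0.50, was -0.12 without differentiated array 1 and 0.86 without proliferating array 1. Channel genes called numbered 2 higher and 2 lower with mouse as a random replicate block, and 0 to 1 higher on leaving out arrays (Ache without proliferating array 1). Other settings, a fixed replicate block included, gave 0. Genes with no overlap were 7 higher and 3 lower. They were 3 higher without dim probes, and 10 to 32 higher and 3 to 11 lower on leaving out arrays, which eases the criterion. The shares of all probes in these settings are not given here, so these counts have no background to be read against.

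Over all probes, limma without a block called 29 higher and 103 lower. A floor at the 10th percentile gave 65 and 178, a pseudocount 127 and 266, leaving out dim probes 137 and 279, a trended robust prior 125 and 263, and a random replicate block 516 and 538. Quantile normalization gave 162 lower and a fixed replicate block 57 higher. At an adjusted p under 0.01 there were 0 and 0 (1519 at an unadjusted p under 0.05). Leaving out arrays gave 0 to 91 higher and 0 to 88 lower, with 0 called without proliferating array 2 or 3, differentiated array 2 or 3, or any 1 mouse (854 to 1516 at an unadjusted p under 0.05). The causes of these shifts were not tested. Low signal limits what can be said of dim probes, and 3 arrays per group limit precision.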

Other observations

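Several channel genes were bright on 1 differentiated array only, a pattern chosen after the values were seen. Of 110 channel genes with 6 values, 5 had a brightest array at least 5 times the next (4.55%, against 1.81% of all probes), and in all 5 it was a differentiated one, as for 136 of the 183 such probes overall. Gria4, an AMPA receptor subunit, read 7.41 in differentiated culture 2 and at most 0.149 elsewhere. Kcne4, an auxiliary potassium channel subunit, read 3.60 in the same culture and at most 0.243 elsewhere. Kcnab1, another auxiliary subunit, read 5.59 in differentiated culture 3 and at most 0.436 elsewhere. Chrnb2 and Gabrd were brightest in differentiated culture 1, at 1.39 and 6.70, with 0.110 and 1.00 as the next values. With 1 array each, these values have no replicate.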
